A study of Mus musculus with 12 samples.

Results

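The effect of seeding pathological tau in the mouse dorsal hippocampus that was common to mice on both diets was examined by comparing all 6 tau-injected mice with all 6 PBS-injected mice, with diet as a covariate. These 12 mice were all 12 samples of the series. They fell into 4 groups of 3: PBS-injected on control diet (standard TestDiet chow), PBS-injected on acetate diet (5% acetate by weight), tau-injected on control diet and tau-injected on acetate diet. Tau was 1 µg of sarkosyl-insoluble protein purified from frontal cortex of people with Alzheimer's disease (AD tau), given on 1 side only, and the tissue was the right dorsal hippocampus of wild-type C57Bl6/J mice 6 months old at surgery and killed 6 months later. No mouse carried a tau transgene, and all 12 had gone through a remote memory recall test the day before tissue was taken, so both arms shared that experience.

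Tau is a microtubule-binding protein of axons, encoded by Mapt. In Alzheimer's disease it becomes hyperphosphorylated and aggregates, and aggregated tau from patients can template the misfolding of the mouse's own tau and spread along connected neurons, which is the principle of the seeding model. The hippocampus is the brain region of spatial and contextual memory and is among the first regions with tau pathology in the disease.

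RNA was measured as poly(A)-selected RNA-seq and deposited as counts of reads per gene. Totals ran from 12983233 to 20218340 counts per mouse, and 14742 of the 24985 genes in the table had enough counts to be tested. All mice were labelled male, but the X-inactivation RNA Xist stood at 919.8 to 1340 CPM (read counts scaled to a common library total) in all 12 libraries and the Y-linked genes Ddx3y, Uty, Kdm5d and Eif2s3y had 0 counts in every library, which goes against that label in both arms alike. Markers of the dentate gyrus, CA1, CA2 and CA3 were all detected. No library matched another of its own group within counting noise. Values below are CPM after TMM normalization, differences are log2(tau/PBS) with diet as a covariate, and ± is the SD over 6 mice unless it is said to be a standard error (SE).

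No gene passed an adjusted p below 0.1 for the tau effect shared by both diets in edgeR's quasi-likelihood test (Benjamini-Hochberg, 0% of 14742 genes, smallest adjusted p = 0.752). At an unadjusted p below 0.05 there were 385 genes lower (2.61%) and 447 genes higher (3.03%) in tau mice, 832 in all or 5.64% of the genes tested. DESeq2, fitted to the same design, called 12 genes at an adjusted p below 0.1, 0.309% of the 3881 genes to which it gave an adjusted p. Of these, 3 were lower in tau mice (Rbm25, Malat1 and Igip) and 9 were higher (among them Zbtb16, Gfod1, Shank2, Arhgap35, Spred2, Zcchc14, Arhgef3 and Ttbk1), and all 12 had the same sign on both diets. DESeq2's own filter on the mean count left 10861 genes without an adjusted p. Without that filter it called 6 genes. Of the 12 these kept only Rbm25, Malat1 and Zbtb16, and Fam76b, Kcnj13 and Col8a1 were added. The median SE of a tau effect was 0.07 on the log2 scale and the median half-width of its 95% interval was 0.15. For a typical gene a shared difference below about that size could thus not be told from 0 by its own interval, with 6 mice against 6. That interval is not adjusted for the 14742 genes tested, and the adjusted threshold asked for larger differences. Fam76b, at -0.34 (SE 0.07), did not pass it in edgeR.

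**Figure D1:**
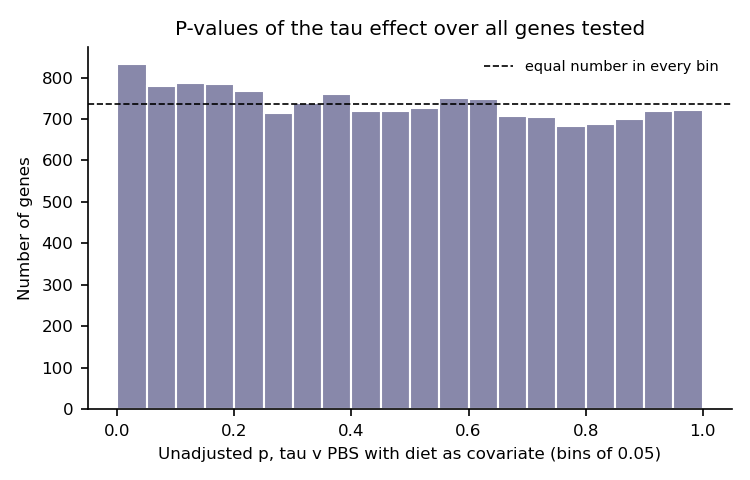
Number of genes (vertical axis) in each bin of 0.05 of the unadjusted edgeR p for tau against PBS with diet as a covariate (horizontal axis), over 14742 genes. The dashed line marks an equal number in every bin. The first bin holds 832 genes and the last holds 722.

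When the effect was estimated on each diet separately, from sets of mice that did not overlap, few genes moved alike. The sign of the tau effect was the same on both diets for 6619 genes (44.9% of those tested), 3416 with values lower on both and 3203 higher on both, and it was opposite for 8123. An unadjusted p below 0.05 on both diets with the same sign was reached by 35 genes (0.237%), 12 lower and 23 higher, against 253 genes with a p below 0.05 on both diets and opposite signs. Requiring an adjusted p below 0.1 for the larger of the 2 p-values left no gene by edgeR or by DESeq2, which had 27 genes with both unadjusted p-values below 0.05.

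The separation of single mice ran the same way. In 100 genes (0.678%) the 3 tau mice did not overlap the 3 PBS mice on either diet and lay on the same side, 51 below (0.346%) and 49 above (0.332%). In 234 genes (1.59%) they did not overlap on either diet and lay on opposite sides. Over all 12 mice, 17 genes had all 6 tau mice below all 6 PBS mice and 27 had all 6 above (44 genes, 0.298%). Tested directly, the tau effect differed between diets in 230 genes (edgeR interaction, adjusted p below 0.1, 1.56%), of which 66 were lower and 164 higher on acetate. That count was 3 with a score of CA1 minus CA3 markers as a covariate, and 8 without the second PBS acetate mouse. In PBS mice this score was -1.25 to -0.62 on control diet and -0.02 to 1.18 on acetate, without overlap. In tau mice it was -0.38 to 0.02 on control diet and -0.38 to 0.81 on acetate. The part of this difference between PBS groups in the opposite signs was not tested. On its own diet, tau gave 2 calls on control chow (0.0136%) and 20 on acetate (0.136%).

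**Figure D2:**
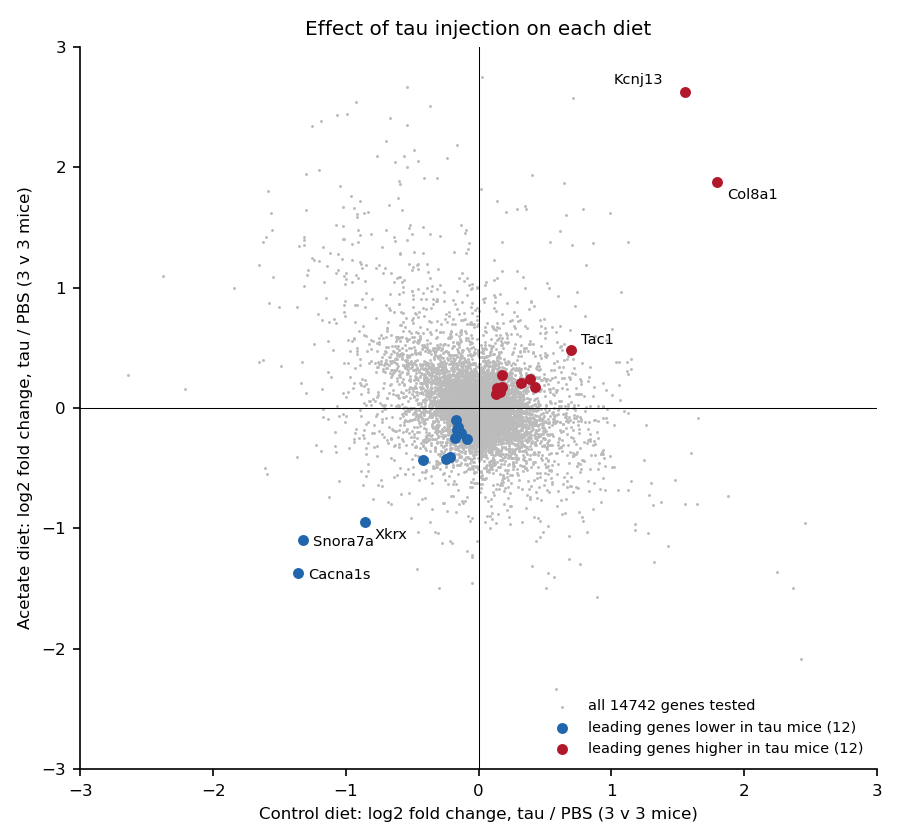
Log2 fold change of tau over PBS on the control diet (horizontal axis) against that on the acetate diet (vertical axis), 3 mice against 3 on each, for all 14742 genes tested (grey) and the 24 leading genes described in the text (blue, 12 lower in tau mice; red, 12 higher). The coloured genes lie in the lower left and upper right because they were chosen for the same sign on both diets, and 1 gene lies outside the plotted range.

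The genes described next were the 12 in each direction with the smallest p among those with the same sign on both diets and no overlap between tau and PBS mice on either. Their direction and lack of overlap were therefore fixed by the choice, their values are a description, and none passed the adjusted threshold in edgeR. The 12 lower genes were Fam76b, Rbm25, Igip, Snora7a, Malat1, Cacna1s, Eif5b, Xkrx, 0610010F05Rik, Dusp1, Nsrp1 and Ramac. The 12 higher genes included Zbtb16, Col8a1, Gfod1, Per2, Sntb2, Ttbk1, Zcchc14, Kcnj13, Bgn, Tac1 and Dag1.

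To show what stands before genes from each end of the comparison, the 250 bases upstream of the RefSeq start are given for Malat1, the most abundant of the lower genes, for Fam76b, the lower gene with the smallest p, for Nsrp1, a lower gene of splicing, and for Ttbk1, the tau kinase among the higher genes. They read 5′ to 3′ in the direction of the gene and end at the base before the start, on build GRCm38.p6. Capitals mark the GC box (GGGCGG) and the CCAAT box (CCAAT), on either strand.
Malat1, chr19:5802673-5802922, minus strand: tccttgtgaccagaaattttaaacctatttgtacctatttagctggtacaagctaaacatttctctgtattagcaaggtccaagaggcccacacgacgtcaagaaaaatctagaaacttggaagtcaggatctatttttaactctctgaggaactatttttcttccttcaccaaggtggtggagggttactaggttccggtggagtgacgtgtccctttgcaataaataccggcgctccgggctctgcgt
Fam76b, chr9:13827466-13827715, plus strand: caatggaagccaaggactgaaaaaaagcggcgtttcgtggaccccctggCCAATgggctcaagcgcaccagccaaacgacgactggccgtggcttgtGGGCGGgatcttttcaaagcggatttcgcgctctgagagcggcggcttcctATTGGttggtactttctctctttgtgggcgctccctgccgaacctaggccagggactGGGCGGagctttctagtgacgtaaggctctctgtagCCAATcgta
Nsrp1, chr11:77078438-77078687, minus strand: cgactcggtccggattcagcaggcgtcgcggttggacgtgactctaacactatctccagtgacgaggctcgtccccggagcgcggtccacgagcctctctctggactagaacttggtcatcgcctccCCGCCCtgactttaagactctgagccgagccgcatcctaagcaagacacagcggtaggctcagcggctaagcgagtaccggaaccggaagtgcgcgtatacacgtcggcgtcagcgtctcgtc
Ttbk1, chr17:46487676-46487925, minus strand: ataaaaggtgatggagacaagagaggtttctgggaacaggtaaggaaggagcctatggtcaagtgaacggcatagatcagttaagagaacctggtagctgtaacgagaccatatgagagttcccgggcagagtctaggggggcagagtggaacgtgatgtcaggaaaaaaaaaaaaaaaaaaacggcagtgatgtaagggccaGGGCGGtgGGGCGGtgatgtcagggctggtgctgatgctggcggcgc
Among 32851 RefSeq windows of this length, 32.7% held a GC box and 33.8% a CCAAT box. The windows of Fam76b, Nsrp1 and Ttbk1 held at least 1 GC box, and that of Fam76b also held CCAAT boxes. None of the 4 held a cAMP response element (TGACGTCA, in 1.55% of all windows), an E-box (CACGTG, 6.02%) or a TATA box (TATAAA, 12.4%), searched on both strands, and Malat1 held none of the 5 motifs. Their GC content was 44.0%, 57.6%, 61.6% and 51.6% in the order printed, against a median of 52.4% over all windows.

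Among the lower genes the most abundant was Malat1 (chromosome 19, 5795690 to 5802672), a long noncoding RNA of nuclear speckles, where splicing factors are stored. Its level was 1234, 1353 and 1204 CPM in PBS mice and 1058, 1018 and 1194 CPM in tau mice on control diet. On acetate it was 1558, 1297 and 1345 CPM in PBS mice and 1202, 922 and 1039 CPM in tau mice. All 6 tau mice lay below all 6 PBS mice, by a narrow margin between 1202 and 1204. The means were 1332 ± 126 CPM in PBS mice and 1072 ± 108 CPM in tau mice, and the log2 difference was -0.31 (SE 0.07, adjusted p = 0.752 by edgeR and 0.0238 by DESeq2), with -0.21 on control diet and -0.41 on acetate. Malat1 shares an exon stretch on its strand with the annotated gene Gm27694, so its count is uncertain to that extent.

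Rbm25 (chromosome 12, 83631236 to 83683123) encodes an RNA-binding protein that sets alternative splice site choice. PBS mice had 172, 175 and 175 CPM on control diet and 188, 182 and 184 CPM on acetate. Tau mice had 162, 166 and 164 CPM on control diet and 160.3, 151 and 152 CPM on acetate. All tau mice were below all PBS mice, and the gap was wider on acetate. The log2 difference was -0.17 (SE 0.04, adjusted p = 0.752 by edgeR and 0.0238 by DESeq2), with -0.09 on control diet and -0.26 on acetate.

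Nsrp1 (chromosome 11, 77044292 to 77078435), which encodes another speckle protein of splicing, stood at 25.7, 28.3 and 28.0 CPM in PBS mice on control diet and 31.3, 29.6 and 27.6 CPM on acetate. In tau mice it was 23.7, 25.3 and 24.0 CPM on control diet and 24.9, 26.9 and 26.5 CPM on acetate. The groups did not overlap within a diet but did across diets, where PBS control mice of 25.7 CPM met tau acetate mice of 26.9 CPM. Its log2 difference of -0.17 (SE 0.05, adjusted p = 0.867 by edgeR) was close to the same on control diet (-0.17) and on acetate (-0.18).

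Fam76b (chromosome 9, 13827716 to 13854987), a nuclear speckle protein gene, had the smallest p of all genes with this pattern. It was 24.8, 27.7 and 22.6 CPM in PBS mice and 21.0, 20.3 and 22.1 CPM in tau mice on control diet, and 27.3, 29.7 and 28.4 CPM against 22.8, 19.0 and 21.6 CPM on acetate. Only 1 tau mouse, at 22.8 CPM on acetate, reached above the lowest PBS mouse, at 22.6 CPM on control diet. The log2 difference was -0.34 (SE 0.07, unadjusted p = 8.65e-05, adjusted p = 0.752 by edgeR), with -0.24 on control diet and -0.43 on acetate. DESeq2 gave no adjusted p for it with its own filter on the mean count, and 0.0451 without that filter.

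Eif5b (chromosome 1, 37998010 to 38055579), which encodes the GTPase that joins ribosomal subunits at the start codon, was 164, 161 and 170 CPM in PBS mice and 150.3, 151 and 139 CPM in tau mice on control diet. On acetate it was 156, 157 and 158 CPM in PBS mice and 140, 151 and 149 CPM in tau mice. All tau mice lay below all PBS mice, and its log2 difference was -0.13 (SE 0.04, adjusted p = 0.867 by edgeR). Unlike the genes above, the difference was numerically larger on control diet (-0.17) than on acetate (-0.10). Ramac, which activates the methyltransferase that caps mRNA, differed by -0.16 (SE 0.05), from 38.2 ± 2.40 CPM in PBS mice to 34.3 ± 2.38 CPM in tau mice.

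Dusp1 (chromosome 17, 26505590 to 26562128) encodes a phosphatase that turns off MAP kinases and is induced early by neuronal activity. It was 18.1, 16.2 and 16.4 CPM in PBS mice and 14.1, 10.9 and 13.1 CPM in tau mice on control diet, and 23.2, 14.8 and 13.5 CPM against 13.5, 13.1 and 11.4 CPM on acetate. On acetate 1 PBS mouse, at 23.2 CPM, stood well above the other PBS mice, whose values came down to those of the tau mice. The log2 difference was -0.43 (SE 0.12, adjusted p = 0.867 by edgeR), -0.42 on control diet and -0.43 on acetate, and it ran from -0.49 to -0.30 when single mice were left out.

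Igip (chromosome 18, 36298679 to 36301517), which encodes a small secreted peptide first described for inducing IgA, was called by DESeq2 (adjusted p = 0.0816) and not by edgeR (adjusted p = 0.752). Its means were 68.9 ± 5.79 CPM in PBS mice and 59.6 ± 6.85 CPM in tau mice, a log2 difference of -0.21 (SE 0.05), with -0.17 on control diet and -0.25 on acetate. Both arms had lower values on acetate than on control diet, and PBS acetate mice, from 62.1 CPM, overlapped tau control mice, up to 70.0 CPM.

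The remaining lower genes were near the filter or little studied. Cacna1s, a calcium channel subunit of skeletal muscle, had 7 to 18 counts in PBS mice and 3 to 6 counts in tau mice, a log2 difference of -1.37 (SE 0.35). Snora7a, a small nucleolar RNA gene, had 10 to 22 counts in PBS mice and 3 to 12 counts in tau mice (-1.19, SE 0.28), and it shares an exon stretch on its strand with the annotated gene Rpl32, a ribosomal protein gene whose reads it may take or lose. Xkrx, a membrane protein gene, differed by -0.91 (SE 0.24) on 5 to 30 counts per mouse. 0610010F05Rik, an uncharacterised protein-coding gene, went from 46.7 ± 1.56 CPM in PBS mice to 41.6 ± 2.44 CPM in tau mice (-0.17, SE 0.05), with all 6 tau mice below all 6 PBS mice.

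**Figure D3:**
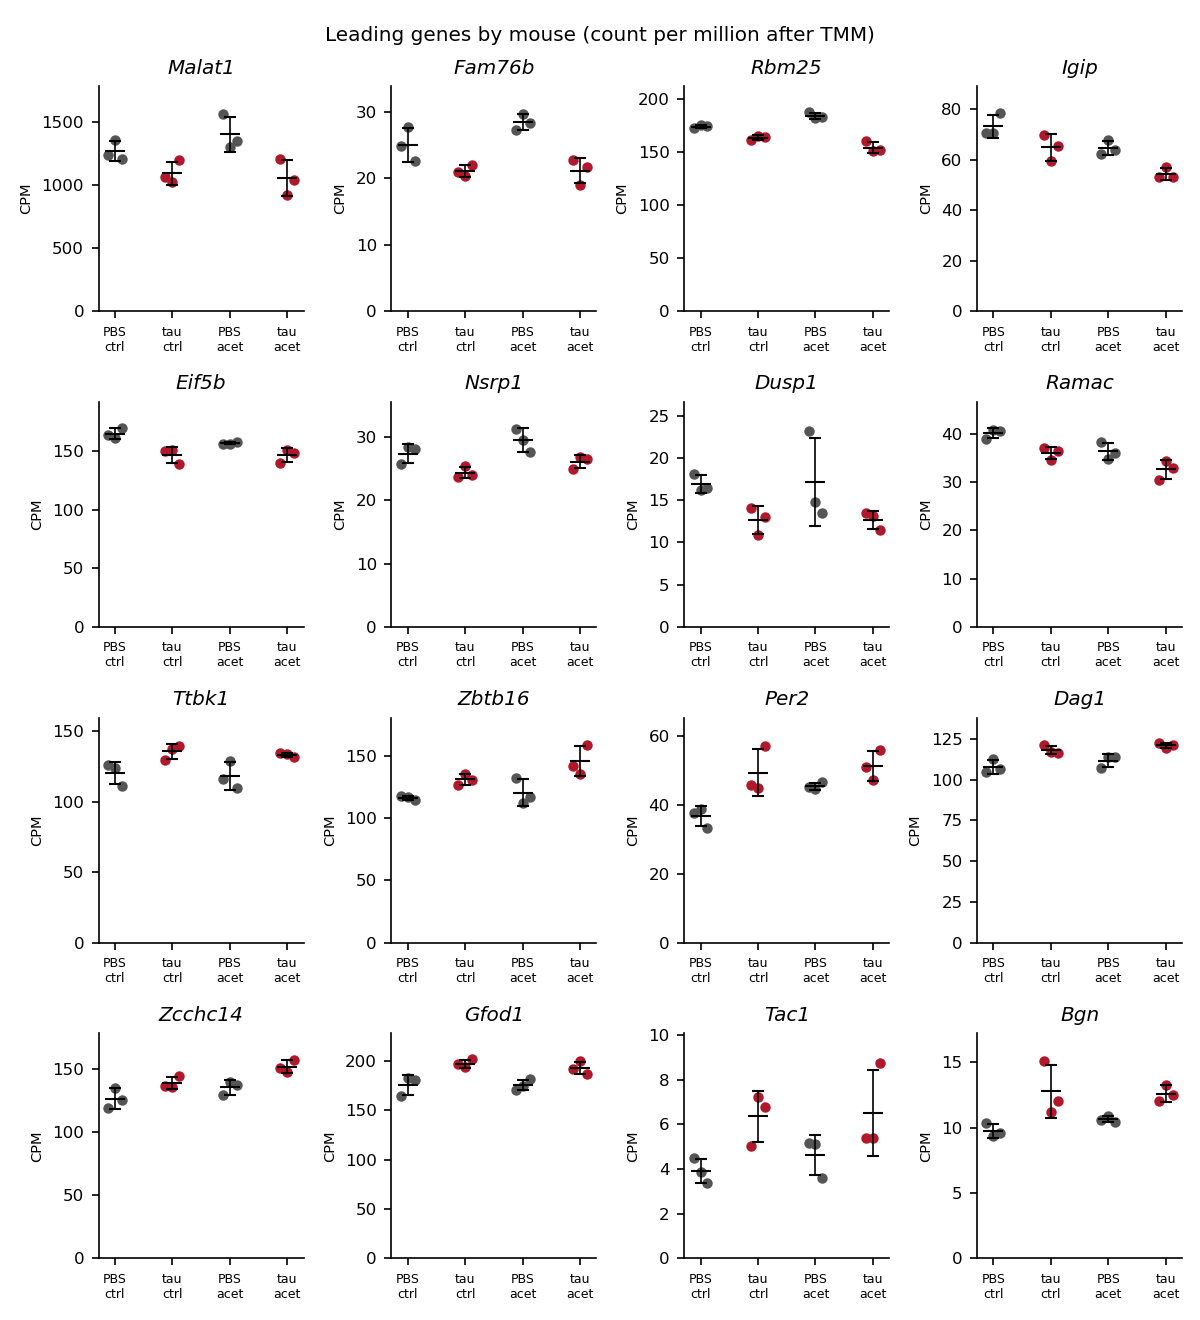
CPM after TMM (vertical axes, from 0) for 8 genes lower and 8 genes higher in tau mice, with 1 point per mouse, 3 mice per group, and a bar for the group mean ± SD. PBS groups are grey and tau groups red, on control (ctrl) and acetate (acet) diet. Malat1 and Rbm25 show red points below grey ones on both diets, and Ttbk1 and Dag1 show the opposite.

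Among the higher genes, Ttbk1 (chromosome 17, 46442448 to 46487675) encodes tau tubulin kinase, a neuronal kinase that phosphorylates tau. It was 126, 124 and 112 CPM in PBS mice and 129.9, 138 and 139.9 CPM in tau mice on control diet. On acetate it was 116, 129 and 109.6 CPM in PBS mice and 135, 134 and 132 CPM in tau mice. Every tau mouse was above every PBS mouse, and the log2 difference was 0.17 (SE 0.04, adjusted p = 0.752 by edgeR and 0.0931 by DESeq2), with 0.17 on control diet and 0.18 on acetate. In the fit that removed trends with GC content and length it was 0.12.

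Zbtb16 (chromosome 9, 48654297 to 48836222) encodes the transcription factor PLZF, whose transcript is induced by glucocorticoids. Control diet mice had 118, 117 and 115 CPM after PBS and 127, 136 and 131 CPM after tau. Acetate mice had 133, 112 and 117 CPM after PBS and 143, 136 and 159 CPM after tau. A single PBS mouse on acetate, at 133 CPM, overlapped the tau mice on control diet. The log2 difference of 0.22 (SE 0.05) had the smallest p of the higher genes (adjusted p = 0.752 by edgeR and 0.0323 by DESeq2).

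Per2 (chromosome 1, 91415982 to 91459324), a repressor of the circadian clock, was 37.6, 38.9 and 33.4 CPM in PBS mice and 45.8, 44.8 and 57.2 CPM in tau mice on control diet, and 45.2, 44.5 and 46.5 CPM against 50.9, 47.2 and 55.8 CPM on acetate. The PBS mice on acetate were at the level of the lower tau mice on control diet. The log2 difference was 0.30 (SE 0.07, adjusted p = 0.752 by edgeR), 0.43 on control diet and 0.18 on acetate.

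Dag1, the matrix receptor dystroglycan, went from 110 ± 4.17 CPM in PBS mice to 120 ± 2.43 CPM in tau mice (0.12, SE 0.03), and Sntb2, a syntrophin of the dystrophin complex, from 19.5 ± 1.72 to 23.3 ± 1.42 CPM (0.26, SE 0.06). Bgn, the matrix proteoglycan biglycan, was 9.34 to 10.9 CPM in PBS mice and 11.2 to 15.1 CPM in tau mice (0.31, SE 0.08). In all 3 genes the 6 tau mice lay above the 6 PBS mice. Shank2, a scaffold of excitatory synapses, was higher by 0.17 (SE 0.04, adjusted p = 0.752 by edgeR and 0.0926 by DESeq2), with 151 to 175 CPM in PBS mice and 171 to 195 CPM in tau mice.

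The largest differences in size were in genes of few counts. Col8a1, a short-chain collagen, was 0.349, 0.232 and 0.474 CPM in PBS mice and 1.44, 1.39 and 0.916 CPM in tau mice on control diet, and 0.646, 0.413 and 0.639 CPM against 0.843, 1.03 and 4.50 CPM on acetate. The tau acetate mouse of 4.50 CPM stood far above the rest, with 70 counts against 12 to 21 in the other tau mice and 3 to 10 in PBS mice. The log2 difference was 1.85 (SE 0.42) with all mice and ran from 1.26 to 2.08 when single mice were left out. Its adjusted p was 0.752 by edgeR and 0.0614 by DESeq2 without its own filter, which otherwise gave none.

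Kcnj13, a potassium channel of the choroid plexus, was 0.640, 1.00 and 0.406 CPM in PBS mice and 2.74, 1.06 and 2.21 CPM in tau mice on control diet, and 0.258, 0.309 and 0.447 CPM against 1.09, 0.666 and 4.75 CPM on acetate. The same tau acetate mouse was again the highest. Its log2 difference was 2.05 (SE 0.51, adjusted p = 0.867 by edgeR). DESeq2 gave no adjusted p for Kcnj13 with its own filter, and 0.0451 without it. Tac1, the precursor of the neuropeptide substance P, was 3.39 to 5.17 CPM in PBS mice and 5.05 to 8.74 CPM in tau mice, a log2 difference of 0.58 (SE 0.15).

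The other genes that DESeq2 called had effects of like size. Gfod1, an oxidoreductase-domain gene, went from 176 ± 7.27 CPM in PBS mice to 195 ± 5.31 CPM in tau mice (0.15, SE 0.04), and Zcchc14, a zinc finger gene, from 131 ± 7.95 to 146 ± 8.16 CPM (0.15, SE 0.04). Arhgap35, a GTPase-activating protein of axon growth, went from 255 ± 16.3 to 283 ± 11.4 CPM (0.15, SE 0.04). Arhgef3, a guanine nucleotide exchange factor, went from 107 ± 7.61 to 119 ± 5.57 CPM (0.16, SE 0.04), and Spred2, a brake on Ras and MAP kinase signalling, from 82.9 ± 3.24 to 93.7 ± 5.32 CPM (0.18, SE 0.04). DESeq2's calls depended on single mice: with each mouse left out in turn it called 0 to 14 genes, with 0 to 8 of the 12, and none without the third PBS acetate mouse or the third tau acetate mouse.

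The transcripts at the centre of the study's question did not differ measurably. Mapt, which encodes tau itself, was 591 ± 45.4 CPM in PBS mice and 586 ± 22.4 CPM in tau mice, a log2 difference of -0.01 (95% interval -0.10 to 0.08), with -0.10 on control diet and 0.08 on acetate. Acss2, which encodes the enzyme that turns acetate into acetyl-CoA, was 55.0 ± 3.86 CPM in PBS mice and 54.8 ± 3.13 CPM in tau mice, a log2 difference of -0.005 (95% interval -0.11 to 0.10). The injected human tau was protein and is not measured by RNA-seq.

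In the functional lists no gene passed the adjusted threshold, and lists are given by how many members had an unadjusted p below 0.05 (5.64% of all genes tested) and by the median log2 difference (-0.002 over all genes tested). Splicing factors had the largest share among the lists of more than 11 genes. All 32 tested members had a value below 0 in tau mice, 13 of them (40.6%, against 2.61% of all genes lower) with an unadjusted p below 0.05, and the list's median was -0.08. On the control diet the median was -0.02 and on acetate -0.12, and 21 of the 32 were below 0 on both diets. Summed over the list, the level was 6246 to 6883 CPM in PBS mice and 5947 to 6747 CPM in tau mice, so the arms overlapped.

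The splicing factors with the largest differences were Luc7l2, a part of the U1 particle that recognises 5′ splice sites (-0.32, SE 0.09), Hnrnpa1, a repressor of exon inclusion (-0.20, SE 0.09), Rbm25 (-0.17) and Srsf11 (-0.17, SE 0.05). The SR proteins, which promote exon inclusion, gave -0.15 (SE 0.05) for Srsf5, -0.12 (SE 0.04) for Srsf1, -0.10 (SE 0.04) for Srsf6 and -0.09 (SE 0.04) for Srsf2. Ptbp2, the neuronal polypyrimidine tract binding protein, was -0.09 on control diet and -0.10 on acetate, and Tra2a was -0.12 and -0.14. Luc7l3, by contrast, was -0.001 on control diet and -0.22 on acetate, and Pnisr was 0.05 and -0.29. After trends with GC content and length were removed, 29 of the 32 remained below 0, 8 of them with an unadjusted p below 0.05, and the list's median was -0.06. Leaving out single mice gave 7 to 15 such genes, the fewest without the third PBS acetate mouse.

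**Figure D4:**
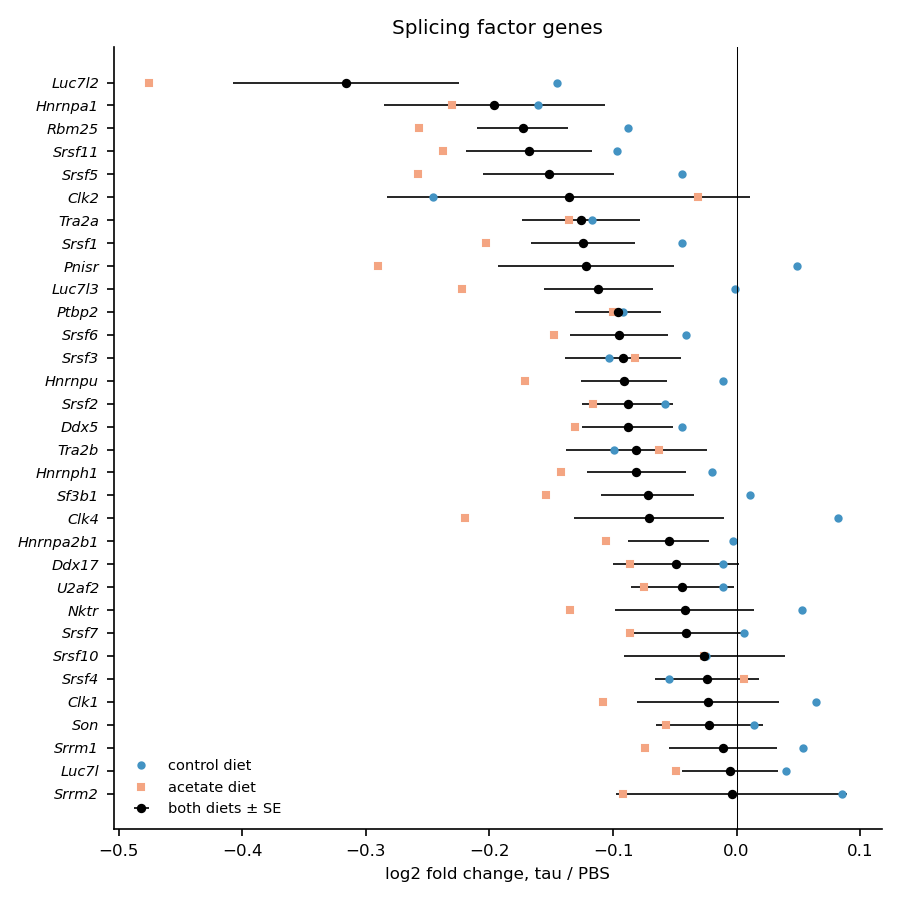
Log2 fold change of tau over PBS (horizontal axis) for the 32 splicing factor genes tested, ordered by the value with diet as a covariate (black, ± SE, 6 mice against 6). Blue circles are the control diet and orange squares the acetate diet, 3 mice against 3 each. All black points lie below 0, and the orange points lie further from 0 than the blue in most genes.

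Among 12 long noncoding RNAs tested, Malat1 included, 10 had values below 0 and the median was -0.14, but only Malat1, Kcnq1ot1 and Mirg were below 0 on both diets. Malat1 alone (8.33%) had an unadjusted p below 0.05, while 6 of the 12 (50%) did without the third PBS control mouse, where the median was -0.20. Kcnq1ot1, an antisense transcript of an imprinted domain, was -0.10 on control diet and -0.14 on acetate. Meg3, an imprinted noncoding RNA, was 0.08 on control diet and -0.50 on acetate, and Neat1, the scaffold of paraspeckles, was -0.41 and 0.14.

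Genes of oxidative phosphorylation were near the background. Of 34 tested, 26 had values below 0, 21 of them on both diets, the median was -0.03, and 3 (8.82%) had an unadjusted p below 0.05: Uqcrb of complex III (-0.19, SE 0.06), Ndufb8 of complex I (-0.12, SE 0.04) and Ndufa4 (-0.11, SE 0.05). Without the third PBS control mouse 19 were below 0 and 15 above, with a median of -0.009. With trends on GC content and length removed the median was -0.02, 1 gene had an unadjusted p below 0.05 and Uqcrb was -0.11. The summed level was 5683 to 6394 CPM in PBS mice and 5665 to 6089 CPM in tau mice. Of 31 proteasome subunits 26 were below 0, none with an unadjusted p below 0.05, with a median of -0.03, and Psmd14 had the smallest p (-0.07, SE 0.04). With those trends removed 16 were below 0 and 15 above, the median was -0.008 and Psmd14 was -0.03. Ribosomal proteins were divided, with 21 of 42 on each side of 0 and 3 genes (7.14%) with an unadjusted p below 0.05, among them Rps14 (-0.14, SE 0.05).

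Lists of tau biology and Alzheimer risk did not stand apart. Of 25 tau kinases, phosphatases and related genes, 15 had values above 0 and 1, Ttbk1, had an unadjusted p below 0.05 (4%). Gsk3b, the classic tau kinase, was 0.00 (SE 0.03), Cdk5 was -0.02 (SE 0.03) and Mark4, which phosphorylates tau in its repeats, was 0.08 (SE 0.05). Of 19 Alzheimer risk genes 1 had an unadjusted p below 0.05, Cd2ap, an adaptor of endocytosis (-0.17, SE 0.07). Among 22 chaperones it was Hspe1, the mitochondrial co-chaperone (-0.16, SE 0.05), and among 23 autophagy and lysosome genes Ulk1, the kinase that starts autophagy (0.09, SE 0.04).

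Glial and immune lists had values above 0 that came mostly from the acetate diet. Of 15 complement and MHC class I genes, 14 were above 0, 2 (13.3%) with an unadjusted p below 0.05, and 3 on both diets. The tau acetate mouse numbered 1 had a summed level of 552 CPM, against 357 to 452 CPM in the other 11, and without it 8 of the 15 were below 0, with a median of -0.01 in place of 0.11. C1qb, a chain of the complement initiator C1q made by microglia, was 39.3 to 43.7 CPM in PBS mice and 41.5 to 48.8 CPM in tau mice on control diet, and 37.9 to 40.0 CPM against 45.5 to 57.6 CPM on acetate. The tau mice thus cleared the PBS mice on acetate but not on control diet. Its log2 difference was 0.24 (SE 0.07), with 0.13 on control diet and 0.36 on acetate, and that of Serping1, the C1 inhibitor, was 0.32 (SE 0.11).

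Interferon response genes had a median of 0.25 with diet as a covariate, but of -0.07 on control diet and 0.47 on acetate, and 5 of 18 were above 0 on both. With diet as a covariate 2 of the 18 (11.1%) had an unadjusted p below 0.05, a count that was 0 without robust estimation and 8 with the CA1 minus CA3 marker score as a covariate. Bst2, tetherin, was 0.51 on control diet and 0.43 on acetate, while Ifit1 was -0.08 and 1.08. The tau acetate mouse numbered 1 had the highest summed interferon level of all mice (230 CPM, against 139 to 177 CPM in the other 11), and without it the median was 0.10. No member had an unadjusted p below 0.05 without that mouse, without the first tau control mouse or without any 1 of the PBS acetate mice. Reactive astrocyte genes were above 0 in 12 of 13, with a median of -0.15 on control diet and 0.33 on acetate, and 1 (7.69%), the oncostatin M receptor Osmr, had an unadjusted p below 0.05 (0.29, SE 0.13; 0.34 on control diet and 0.24 on acetate). The tau acetate mouse numbered 1 also had the highest summed level of these genes (1091 CPM, against 752 to 923 CPM), and without it 9 of 13 were above 0, none had an unadjusted p below 0.05 and the median with diet as a covariate went from 0.12 to 0.03. Of 20 disease-associated microglia genes none had an unadjusted p below 0.05, and Axl, a receptor for dying cells, came closest (0.10, SE 0.05). The IL-6 family list had 2 of 15 (13.3%), and 0 without the third PBS acetate mouse or the first tau acetate mouse.

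Synaptic lists were close to the background. Glutamate receptor and scaffold genes had 2 of 30 (6.67%) with an unadjusted p below 0.05, GABA synapse genes 1 of 19 (5.26%), and synaptic vesicle genes 2 of 24 (8.33%). Of 23 immediate early genes 3 had an unadjusted p below 0.05, Dusp1 and Btg2 lower (-0.36, SE 0.15 for Btg2) and Homer1, a synaptic scaffold, higher (0.16, SE 0.05). Fos was -0.62 on control diet and -0.19 on acetate.

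The other lists gave at most 2 genes with an unadjusted p below 0.05. Circadian clock genes had 2 of 18 (11.1%), Per2 and Tef (0.08, SE 0.03). Glucocorticoid and FoxO targets had 1 of 18 (Zbtb16), cholesterol synthesis genes 2 of 19 (10.5%; Hsd17b7 -0.18, SE 0.07), neuropeptides 1 of 13 (Tac1), and neurogenesis genes 1 of 8 (Nes, the intermediate filament nestin, 0.05 on control diet and 0.50 on acetate). Acetate and fatty acid genes had none of 18, with Fasn, fatty acid synthase, at 0.06 (SE 0.04).

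**Figure D5:**
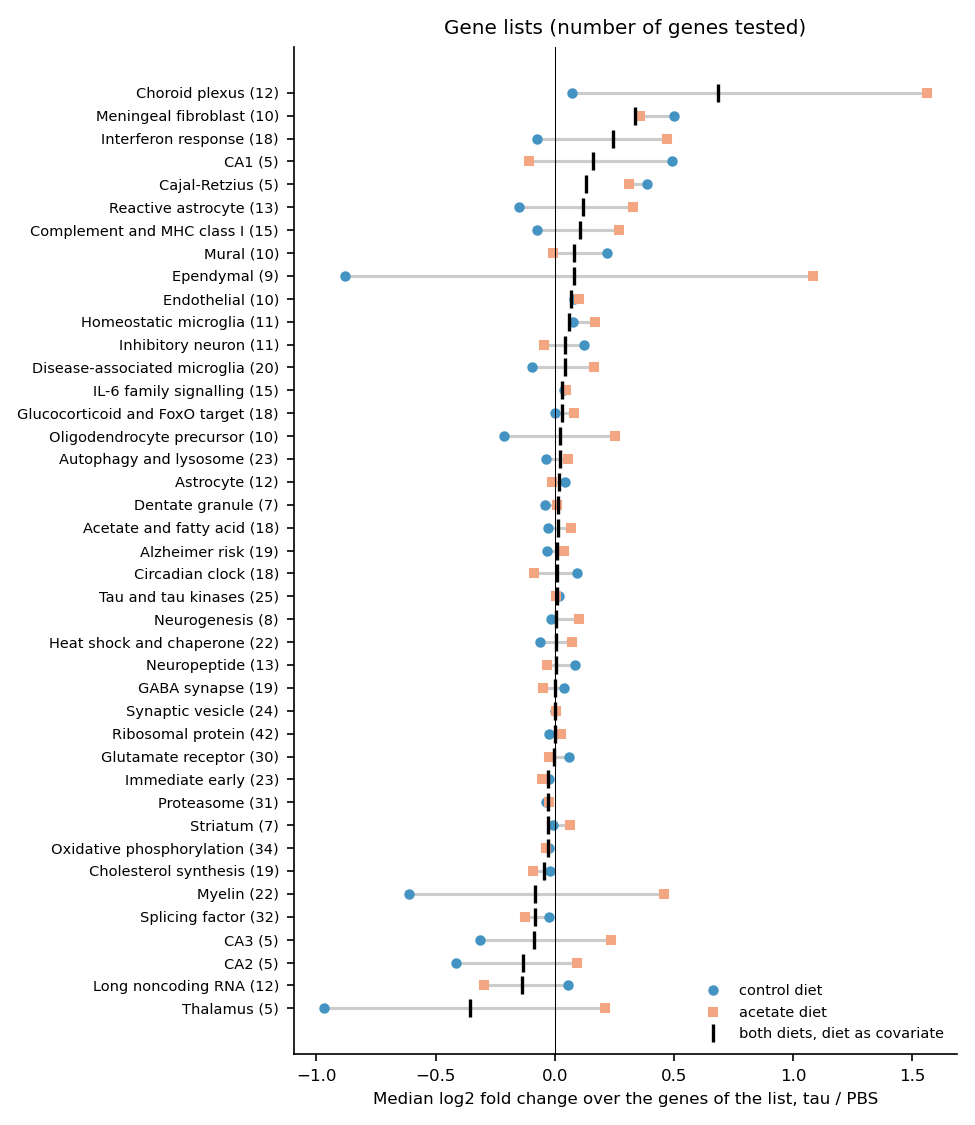
Median log2 fold change of tau over PBS (horizontal axis) over the genes of each list with at least 5 genes tested (number in brackets), on control diet (blue circles), acetate diet (orange squares) and with diet as a covariate (black bars). Ependymal, choroid plexus, thalamus and myelin lists have the widest gaps between diets, and the meningeal fibroblast and Cajal-Retzius lists are among those above 0 on both.

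No cell type marker passed the adjusted threshold for tau against PBS, and in bulk tissue fewer cells of a type and less RNA per cell cannot be told apart. Of 10 meningeal fibroblast markers 9 were above 0 with diet as a covariate, 5 (50%) with an unadjusted p below 0.05, and 6 were above 0 on both diets, with medians of 0.50 on control diet and 0.36 on acetate. Their summed level was 52.8 to 70.3 CPM in PBS mice and 61.0 to 93.7 CPM in tau mice. On acetate 1 tau mouse, at 61.0 CPM, lay below all PBS mice (61.1 to 66.0 CPM). Among them Col1a2, a chain of type I collagen, was 0.42 (SE 0.15), Dcn, decorin, 0.58 (SE 0.24), Igf2 0.31 (SE 0.13) and the GABA transporter Slc6a13 0.39 (SE 0.14). Without the third tau acetate mouse only 1 of the 10 had an unadjusted p below 0.05, and 3 did with trends on GC content and length removed. Col8a1 and Bgn are matrix genes too, and the part of these cells in their values was not tested.

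Choroid plexus markers were above 0 in 11 of 12, 3 (25%) with an unadjusted p below 0.05 (Kcnj13, Aqp1 and Ttr), with a median of 0.68. The median was 0.07 on control diet and 1.56 on acetate. On control diet the summed level was 365 to 426 CPM in PBS mice and 293 to 476 CPM in tau mice, with overlap. On acetate it was 271 to 286 CPM against 361 to 907 CPM. Over both diets the summed level was 271 to 426 CPM in PBS mice and 293 to 476 CPM in 5 tau mice. It was 907 CPM in the third tau acetate mouse, the one with the highest Kcnj13 and Col8a1. Without that mouse the list's median was 0.23. Ttr, transthyretin, the most abundant transcript of that tissue, was 43.0 ± 21.5 CPM in PBS mice and 128 ± 139 CPM in tau mice. The part of choroid plexus tissue in the Kcnj13 and Col8a1 values was not tested.

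Homeostatic microglia markers included 5 of 11 (45.5%) with an unadjusted p below 0.05, all with higher values in tau mice, and 6 of the 11 were above 0 on both diets. Those 5 were Selplg (0.20, SE 0.06), Csf1r, the receptor that microglia need to survive (0.16, SE 0.05), Cx3cr1, the fractalkine receptor (0.15, SE 0.05), Siglech (0.20, SE 0.07) and Tmem119 (0.20, SE 0.08). P2ry12 (0.02, SE 0.05) and Gpr34 (0.001, SE 0.07) did not reach it. The list's median was 0.08 on control diet and 0.17 on acetate, and 2 of the 11 were below 0 with diet as a covariate. The summed level was 452 to 471 CPM in PBS mice and 457 to 529 CPM in tau mice. On control diet it was 452 to 467 CPM in PBS mice and 457 to 505 CPM in tau mice, with overlap. On acetate the microglia markers summed to 452 to 471 CPM against 481 to 529 CPM, without overlap. C1qb, made by these cells, was highest in the same tau acetate mouse, numbered 1, as the summed microglia level, and the part of microglial number was not tested.

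Mural cells had 2 of 10 (20%), Acta2, smooth muscle actin (0.44, SE 0.15), and Notch3 (0.28, SE 0.10), with a median of 0.22 on control diet and -0.01 on acetate. Endothelial markers had 1 of 10 (10%), Cdh5 (0.26, SE 0.10), and oligodendrocyte precursors 2 of 10 (20%; Cspg4 0.18, SE 0.07). With trends on GC content and length removed none of the precursor markers had an unadjusted p below 0.05, 5 lay on each side of 0 and Cspg4 was 0.12. Astrocyte markers had none of 12, S100b being at -0.09 (SE 0.06). Inhibitory neuron markers had 2 of 11 (18.2%; Gad2 0.10, SE 0.04), and 0 to 3 when single mice were left out.

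Myelin and ependymal lists ran in opposite directions on the diets throughout. None of 22 myelin genes had the same sign on both, with medians of -0.61 on control diet and 0.46 on acetate. Their summed level over both diets was 5337 to 10920 CPM in PBS mice and 5641 to 10350 CPM in tau mice. On control diet it was 8440 to 10920 CPM in PBS mice and 5641 to 6867 CPM in tau mice, without overlap. On acetate the myelin genes summed to 5337 to 7336 CPM against 6429 to 10350 CPM, with overlap. None of 9 ependymal markers had the same sign on both either, with medians of -0.88 and 1.08. Neither list had a member with an unadjusted p below 0.05 once diet was a covariate. Rsph1, of the cilia of ependymal cells, was -0.37 on control diet and 1.08 on acetate.

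Markers of the hippocampal fields and of neighbouring tissue had no member with an unadjusted p below 0.05. The medians were 0.01 for 7 dentate granule markers (Tdo2 -0.14, SE 0.13), 0.16 for 5 CA1 markers (Fibcd1 0.25, SE 0.14), -0.13 for 5 CA2 markers (Rgs14 -0.13, SE 0.09) and -0.09 for 5 CA3 markers (Grik4 -0.09, SE 0.11), with opposite signs on the diets for the medians of CA1, CA2 and CA3. The PBS groups differed here without overlap. Their summed CA1 markers were 452 to 589 CPM on control diet and 718 to 946 CPM on acetate, and their CA3 markers 384 to 471 CPM and 203 to 340 CPM. In tau mice the diets overlapped, with CA1 at 606 to 767 CPM and 653 to 935 CPM, and CA3 at 293 to 374 CPM and 237 to 365 CPM. Cajal-Retzius markers had a median of 0.13 over 5 (Calb2 0.58, SE 0.48). Their median was 0.39 on control diet and 0.31 on acetate, and 2 of the 5 were above 0 on both. The median was -0.35 over 5 thalamus markers (Lef1 -0.33, SE 0.22) and -0.03 over 7 striatum markers (Gpr6 0.34, SE 0.28). The second PBS control mouse had 251 CPM of thalamus markers, against 50.2 to 125 CPM in the other 11, and without it the thalamus median was -0.07 and Lef1 -0.08. Calb2 was 0.11 without the third tau acetate mouse. Of the blood markers Hba-a1, Hba-a2, Hbb-bs and Hbb-bt had 0 counts and Alas2 alone was tested (0.07, SE 0.20), and no T cell marker had enough counts.

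The genes nearest to a shared effect also differed in base composition. Median GC content of the transcripts was 49.8% over all genes tested, 45.5% over the 385 lower genes with an unadjusted p below 0.05 and 52.3% over the 447 higher ones, and median lengths were 3434, 3172.5 and 4992 bases. When genes were split by GC content into 5 bins of equal size, 150 were lower and 39 higher at that p in the bin of lowest GC content, and 46 and 124 in the bin of highest. The slope of log2 CPM on GC content per 10 percentage points was 0.02 to 0.07 in tau acetate mice and -0.004 to 0.02 in PBS acetate mice, without overlap, and on control diet it was -0.03 to -0.01 in tau mice and -0.05 to -0.02 in PBS mice, with overlap. With trends on GC content and length removed from each library, edgeR again called no gene (smallest adjusted p = 0.998), with 338 lower and 308 higher at an unadjusted p below 0.05. Of the 12 lower leading genes Malat1 was -0.31 and Eif5b -0.15 in that fit, while Ramac went from -0.16 to -0.09. Rbm25 went from -0.17 to -0.13 and Igip from -0.21 to -0.16. Among higher genes Gfod1 went from 0.15 to 0.11, Zcchc14 and Arhgap35 from 0.15 to 0.10 and Shank2 from 0.17 to 0.12. Arhgef3 stayed at 0.16 and Bgn at 0.31. In the same fit the median of the splicing factor list was -0.06 in place of -0.08, that of the meningeal fibroblast list stayed at 0.34, and homeostatic microglia markers again had 5 of 11 with an unadjusted p below 0.05.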

How the data were processed

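RNA from the right dorsal hippocampus of 12 mice was sequenced after poly(A) selection. Per the labels, the authors aligned reads to GRCm38 with STAR 2.5.2a and counted them per gene with HTSeq 0.9.1, with SAMtools 1.1 among the tools named, and deposited raw counts in 1 table of 24985 genes with a column for each mouse. No column was left unused (0). Per the study's methods, HTSeq counted exons in its reverse-stranded mode. Groups were taken from the sample titles.

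Genes were kept with filterByExpr (minimum count 10, minimum total 15), leaving 14742 for testing. Counts were fitted by edgeR 4.0.16 in R 4.3.3 (quasi-likelihood, robust, TMM) with injection plus diet as the design over 12 mice (9 residual degrees of freedom). Effects on each diet, and their difference, came from a fit with 1 mean per group. Adjusted p-values are Benjamini-Hochberg over all genes tested, with calls below 0.1. A gene was tested on both diets at once by the larger of its p-values when the signs agreed. DESeq2 1.42.0, the tool the authors named, was the alternative, and its missing adjusted p-values were left missing. The functions were tested on simulated data first. The biological coefficient of variation was 8.18% in the design with diet as a covariate and 7.25% in that with 1 mean per group.

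Named genes were those past the threshold with the same sign on both diets, filled up to 12 per direction with genes of smallest p, same sign and no overlap on either diet, the 6 per direction with the smallest larger p, the member of smallest p in each list, and Mapt and Acss2. Genes called by DESeq2, and further list members given with values, were named after their values were seen. Some genes that the rule named are not reported here. The members and the lists were chosen with earlier results of these data known. Gene positions, lengths and GC content come from GENCODE vM21 (GRCm38) by symbol, for 24534 genes, and promoters from RefSeq (GRCm38.p6), which held 44 of 62 named genes. Tau and PBS mice with the same replicate number did not deviate together (r from -0.145 to -0.050 over the 6 pairs within a diet), so numbers were not treated as pairs. The 3 same-numbered pairs of PBS mice on control and acetate diet had r of 0.205, 0.253 and 0.379, against -0.254 to 0.045 for the other pairs of those groups. Alternatives were another normalization, filter, threshold and tool, a fit without robust estimation, a replicate block, a score of CA1 minus CA3 markers as a covariate, removal of trends with GC content and length, and leaving out each mouse.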

Additional observations from a re-analysis of the deposited data

Results flagged for a closer look

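In 60 groups of 6 mice (tau or PBS, each mouse set against its diet's mean, over 30 genes), 5 had a mouse standing apart by Dixon's ratio of its gap to the range of the group. The ratio's chance rate of about 1 in 20 is for independent values. Values set against a diet's mean are not independent, and most of these genes were chosen for non-overlap of the same mice. That rate therefore does not apply to the 5. The ratio was 0.725 for Arhgap35 in tau mice, where the first tau control mouse was lowest, and 0.672 for Eif5b in PBS mice, where the third PBS control mouse was highest. It was 0.631 for 0610010F05Rik in tau mice, with the second tau acetate mouse lowest, 0.629 for Sntb2 in PBS mice, with the third PBS control mouse lowest, and 0.625 for Arhgef3 in tau mice, with the first tau acetate mouse lowest.

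Nkx6-2, a transcription factor of oligodendrocytes, was the named gene whose tau effect differed between diets by the edgeR interaction test (adjusted p = 0.0435). Its level was 15.6 to 17.8 CPM in PBS mice and 9.30 to 11.9 CPM in tau mice on control diet, a log2 difference of -0.70, and 10.4 to 14.6 CPM against 12.4 to 17.8 CPM on acetate, a log2 difference of 0.38.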

How the results depend on the processing

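The count of 0 genes for the shared tau effect held in edgeR under every alternative run, including the replicate block (0), and so did the count of 0 for both diets at once (0 with the block). The shared effect had 12 calls with DESeq2 and 6 with DESeq2 adjusted over all genes. Those 6 were Fam76b, Rbm25 and Malat1 (lower) and Zbtb16, Kcnj13 and Col8a1 (higher). Only Rbm25, Malat1 and Zbtb16 of them were among the 12, so the other calls of the 12 depended on DESeq2's filter. Adjusting over all genes was a setting chosen after seeing the data, as were the removal of GC and length trends and leaving out mice in DESeq2.

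The 2 calls on control diet became 0 at an adjusted p below 0.05, without robust estimation or with the CA1 minus CA3 covariate, 1 with GC and length trends removed, 9 with the replicate block and 100 with DESeq2. Leaving out single mice gave 0 to 16, the most without the third tau acetate mouse. The 20 calls on acetate became 0 at an adjusted p below 0.05, 10 with the CA1 minus CA3 covariate, 11 without robust estimation, 37 without the filter, 44 with the trends removed and 130 with DESeq2. Leaving out single mice gave 0 to 93, with 0 without any of the PBS acetate mice and 93 without the second tau acetate mouse. The 230 differences between diets became 3 with the CA1 minus CA3 covariate, 43 at an adjusted p below 0.05, 349 with the replicate block and 472 with DESeq2, and 8 to 442 without single mice, the fewest without the second PBS acetate mouse and the most without the third tau acetate mouse. The labels do not say what a replicate number marks, and same-numbered mice deviated together between the PBS groups (r from 0.205 to 0.379) but not between tau and PBS mice of a diet, so the block was not read as a pairing. The cause of these changes was not tested.

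Signs turned only for genes near 0: Mapt (0.012 with the CA1 minus CA3 covariate, and -0.035 to 0.011 without single mice), Acss2 (0.012 with that covariate, and -0.030 to 0.026 without single mice), Fasn (-0.004 with trends removed) and Alas2 (-0.119 to 0.171 without single mice). The 24 leading genes kept their sign in the alternatives run, but their direction was fixed by how they were chosen.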
